A study of Mus musculus with 6 samples.

Results

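Imprinted genes are read from the maternal or the paternal copy according to DNA methylation laid down in the germ line, and 41 of them, grouped here into 18 domains that share a control region, were examined in germinal centre B cells with and without Tet2. Regions were chosen by position and coverage. They are the 1 kb tiles with at least 3 CpG positions read 10 or more times in every library, within 5 kb of the annotated span of a listed gene. This gave 188 of 113541 tiles in the genome, holding 3161 CpG positions, and each of the 41 genes had at least 1 tile. Tiles with a mean methylation of 35% to 65% in the Tet2 WT libraries are called intermediate below and are candidate control regions by that mean level alone. There were 56 of them, in 29 genes and 17 of the 18 domains, against 132 other tiles. As this class was cut on WT levels, an intermediate level in WT is a description and not a finding.

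The study profiled DNA methylation by enhanced reduced representation bisulfite sequencing, which reads MspI fragments and so favours CpG-rich DNA, in germinal centre B cells taken from spleens of the C57BL/6 strain. The 3 Tet2 KO libraries are labelled as knock-outs and the 3 Tet2 WT libraries as wild type. The labels do not state how the Tet2 allele was made, whether B cells alone lacked it, or the age, number and pooling of the animals. The libraries held 174375503 to 203863392 reads over CpGs, at a mean coverage of 101 to 125 reads per listed position.

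Imprints are set in the germ cells by de novo methyltransferases and are then kept on a single parental copy in all tissues, because zinc finger proteins such as ZFP57 hold the maintenance machinery at the methylated copy through the wave of demethylation in the early embryo. A control region therefore carries both states side by side, and bisulfite reads from a mixture of the copies give an intermediate level. TET enzymes oxidise 5-methylcytosine and can start its removal, and imprinted control regions are a place where loss or gain of methylation changes which copy is read. The mice were inbred, so the parental copies could not be told apart. Intermediate methylation in bulk DNA can come from 1 methylated copy in every cell or from a mixture of cells, and these cannot be told apart here. Bisulfite also reads 5-methylcytosine and 5-hydroxymethylcytosine alike.

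The stretches printed here show the kinds of start regions found among the imprinted genes. They are the 250 bases before the annotated transcript start, from the RefSeq promoter table for GRCm38.p6, written 5′ to 3′ on the strand of the gene. Capitals mark the CpGs read 10 or more times in all 6 libraries. The first 4 show starts at levels between the extremes: Plagl1 (chr10:13090582-13090831, plus strand), Zrsr1 (chr11:22971755-22972004, plus strand), Igf2r (chr17:12769707-12769956, minus strand) and Meg3 (chr12:109540746-109540995, plus strand). Mkrn3 (chr7:62420154-62420403, minus strand) is shown because its mean differed most between the genotypes among the covered stretches with 5 or more CpGs read, so its values are a description. The most downstream start of Gnas (chr2:174329756-174330005, plus strand) was free of methylation, and the start of Mcts2 (chr2:152686898-152687147, plus strand) was almost fully methylated.
Plagl1: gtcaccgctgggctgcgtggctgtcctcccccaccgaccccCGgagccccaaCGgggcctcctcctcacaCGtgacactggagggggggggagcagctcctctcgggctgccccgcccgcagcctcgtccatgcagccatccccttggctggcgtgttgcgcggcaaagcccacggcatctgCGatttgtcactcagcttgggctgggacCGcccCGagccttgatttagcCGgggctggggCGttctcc
Zrsr1: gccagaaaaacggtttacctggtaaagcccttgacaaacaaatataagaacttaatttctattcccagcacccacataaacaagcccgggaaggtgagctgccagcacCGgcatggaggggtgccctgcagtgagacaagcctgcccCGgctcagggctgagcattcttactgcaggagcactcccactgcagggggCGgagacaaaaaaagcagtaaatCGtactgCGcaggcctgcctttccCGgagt
Igf2r: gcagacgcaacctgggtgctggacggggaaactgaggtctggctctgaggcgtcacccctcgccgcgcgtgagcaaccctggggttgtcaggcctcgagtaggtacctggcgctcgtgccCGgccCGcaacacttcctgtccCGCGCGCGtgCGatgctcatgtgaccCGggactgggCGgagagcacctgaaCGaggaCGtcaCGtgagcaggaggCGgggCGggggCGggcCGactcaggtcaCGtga
Meg3: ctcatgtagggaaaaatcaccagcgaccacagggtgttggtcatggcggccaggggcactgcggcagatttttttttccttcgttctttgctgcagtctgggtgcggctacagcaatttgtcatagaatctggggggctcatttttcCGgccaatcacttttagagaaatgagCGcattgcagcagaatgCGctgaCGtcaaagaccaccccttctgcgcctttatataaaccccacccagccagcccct
Mkrn3: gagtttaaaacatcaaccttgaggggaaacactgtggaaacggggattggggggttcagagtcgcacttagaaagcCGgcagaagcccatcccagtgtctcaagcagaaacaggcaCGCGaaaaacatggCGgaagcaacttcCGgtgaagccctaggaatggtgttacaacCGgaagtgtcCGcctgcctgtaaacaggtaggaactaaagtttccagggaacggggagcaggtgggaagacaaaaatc
Gnas: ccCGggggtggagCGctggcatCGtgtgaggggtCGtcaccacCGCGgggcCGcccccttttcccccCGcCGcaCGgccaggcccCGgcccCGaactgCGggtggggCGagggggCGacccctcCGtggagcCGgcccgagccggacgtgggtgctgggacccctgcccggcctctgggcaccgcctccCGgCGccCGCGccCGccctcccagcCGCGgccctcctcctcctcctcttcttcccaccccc
Mcts2: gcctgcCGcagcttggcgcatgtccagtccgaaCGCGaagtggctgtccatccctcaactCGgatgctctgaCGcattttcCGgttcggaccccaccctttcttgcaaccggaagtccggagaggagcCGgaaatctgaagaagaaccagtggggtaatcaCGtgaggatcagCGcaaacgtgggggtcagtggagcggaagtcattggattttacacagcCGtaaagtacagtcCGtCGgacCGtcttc

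The capital CpGs of the Plagl1 stretch averaged 40.5%, 40.8% and 32.7% in KO libraries 1, 2 and 3, against 43.2%, 20.9% and 29.3% in WT libraries 1, 2 and 3, over 8 of its 19 CpGs. The groups overlapped, and WT replicate 2 was the lowest. In the Zrsr1 stretch the 6 capital CpGs averaged 40.2% ± 8.90 in KO and 39.3% ± 5.85 in WT (SD, n = 3 each). Those of Igf2r, 17 of 27, averaged 34.5% ± 4.24 in KO and 36.5% ± 9.20 in WT. At Meg3, 4 CpGs averaged 41.8% ± 3.05 in KO and 50.1% ± 15.2 in WT. The Meg3 groups overlapped because WT replicate 1 stood at 67.6% and WT replicates 2 and 3 at 42.7% and 39.98%.

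The 7 capital CpGs of the Mkrn3 stretch averaged 36.7%, 35.7% and 32.0% in KO libraries, against 22.8%, 28.3% and 29.1% in WT libraries, without overlap. At the Gnas stretch each of the 24 capital CpGs was at most 4.97% methylated in the KO mean and at most 1.67% in the WT mean. The 13 capital CpGs of Mcts2 averaged 94.5% ± 1.61 in KO and 91.4% ± 1.15 in WT. The promoter table held 45 windows of 300 bases for 31 of the 41 genes, and 21 windows of 19 genes had a covered CpG. The core hexamer bound by ZFP57, TGCCGC, searched on both strands as TGCCGC or GCGGCA, occurred in 12 of the 45 windows (26.7%) and in 11.6% of all 32851 windows of the table. Windows of neighbouring starts can overlap and were counted separately. The Mest windows chr6:30737800-30738099 and chr6:30737803-30738102 share nearly all their bases, and each was counted, with 2 matches apiece. The Plagl1, Meg3 and Mcts2 stretches hold 1 match each and the other 4 hold none, and a match is a description of the letters only.

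The labels were checked at Tet2 itself, where 6 CpG positions on chromosome 3 from 133486189 to 133486297 were listed in all WT libraries and in no KO library. Near the B cell genes Cd79a and Cd79b, methylation was 0.331% and 0.303% in KO, against 1.35% and 0.246% in WT. Positions of the T cell genes Cd3g and Cd8a were at 74.8% and 86.5% in KO, against 75.7% and 85.4% in WT, and those of the myeloid genes Csf1r, Elane and Mpo were at 80.6% to 91.7% in either group. These positions came from the gene span with 1 kb on either side, and Cd3e and Lyz2 were not covered. The origin of the replicates is not described beyond their numbers. The p-values below therefore reflect variation from library to library, part of which may be technical.

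No imprinted tile was called different between the genotypes, but 2 were called with the replicate number as a block and 1 without WT replicate 3. A tile was called where the limma-moderated quasi-binomial test gave a Benjamini-Hochberg adjusted p under 0.05 over all 83114 tested tiles and the group means lay at least 10 percentage points apart. None of the 155 tested imprinted tiles met this (lowest adjusted p = 0.0916), against 0.687% of all tested tiles called in either direction, 0.685% higher in KO and 0.00241% lower. At an unadjusted p under 0.05 the same test gave 18 imprinted tiles (11.6%), 12 higher and 6 lower in KO, beside 11.5% of all tested tiles. By the quasi-binomial test, the imprinted share at an unadjusted p under 0.05 was close to that of the genome. Limma on log2 ratios called 0 of all tested tiles, and its unadjusted share over the genome was not computed.

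Over all 188 imprinted tiles the median difference, KO minus WT, was 0.194 points, with a range of −20.9 to 15.4. Over all tiles of the genome the median difference was 0.418 points. The KO mean was above the WT mean in 103 imprinted tiles (54.8%), beside 62.3% of all tiles. Groups did not overlap in 28 tiles (14.9%), 14 higher and 14 lower in KO, beside 14.8% of all tiles. Not passing a threshold does not show that levels were equal, and the intervals given below show what differences remain possible at each tile.

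The 56 intermediate tiles had a median level of 41.3% in KO and 41.2% in WT, and a median difference of 1.36 points with an interquartile range of −1.18 to 3.60. Leaving out a WT library also recut the class, so its member tiles changed. The median difference was 0.0380 points over 50 tiles without WT replicate 1 and 0.0316 over 47 tiles without WT replicate 2. It was −0.211 over the 31 tiles with a WT mean of 40% to 60%. Averaged over the 56 tiles, KO libraries 1, 2 and 3 stood at 44.4%, 45.1% and 44.2%, and WT libraries 1, 2 and 3 at 43.1%, 43.8% and 44.0%. All 3 KO means lay above all 3 WT means, but the medians over the same tiles overlapped, at 42.4%, 43.7% and 41.3% in KO and 43.3%, 42.8% and 42.8% in WT. KO was above WT in 33 of the 56 tiles (58.9%). A difference of 10 points or more was seen in 7 tiles (12.5%), beside 24.6% of the intermediate tiles outside the imprinted genes. At an unadjusted p under 0.05 there were 8 (14.3%; 4 higher, 4 lower in KO), beside 21.8% of all intermediate tiles of the genome.

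Intermediate tiles outside the imprinted genes, 9013 in number, had a median difference of 3.86 points, with KO above WT in 73.1%. Of these, 224 were called higher in KO and 0 lower, and over all intermediate tiles of the genome 2.47% were called. Their mean levels were 57.4%, 57.4% and 56.8% in KO libraries, against 49.8%, 53.0% and 53.7% in WT libraries. Groups did not overlap in 6 imprinted intermediate tiles (10.7%; 2 higher, 4 lower in KO), beside 23.6% of all intermediate tiles (21.5% higher, 2.06% lower). The difference between the imprinted and other intermediate tiles was not tested, and its size depends on the libraries on which the class is cut. With the class cut on the KO mean in place of the WT mean, the median difference was 1.82 points over 55 imprinted tiles and 2.47 points over the rest, with KO above WT in 65.5% and 66.3%. Cut on the mean of all 6 libraries, the medians were 1.36 points over 58 imprinted tiles and 3.22 points over 8577 others. KO was then above WT in 60.3% and 69.95%. With WT limits of 40% to 60% the medians were −0.211 and 3.95 points, and with 30% to 70% they were 1.33 and 3.86 points. Restricting both sets to tiles with 10 or more positions gave medians of 1.82 points over 21 imprinted tiles and 3.02 points over 984 others.

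**Figure D1:**
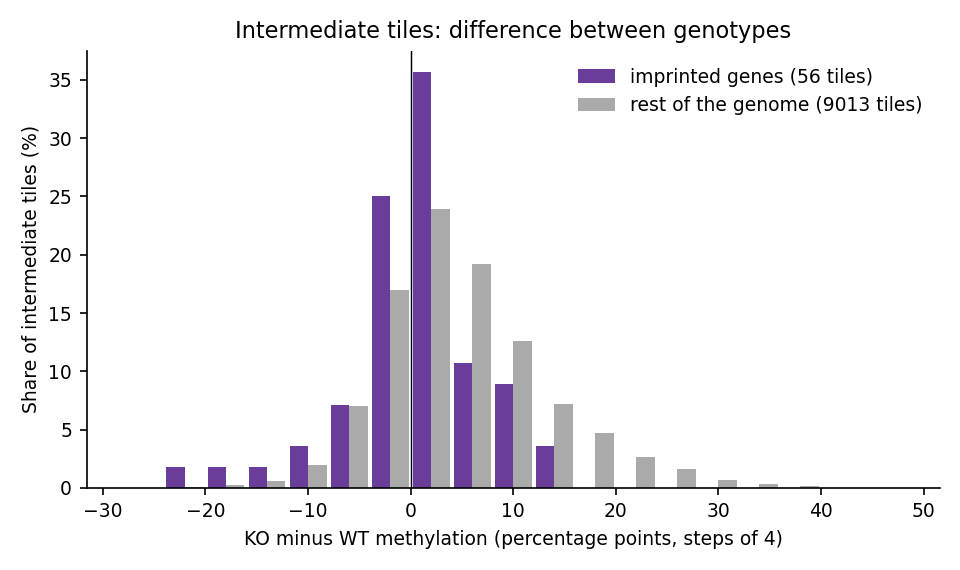
Differences between the genotypes at tiles with a WT mean of 35% to 65%, as the share of tiles (vertical axis, %) in steps of 4 percentage points of KO minus WT (horizontal axis), for 56 imprinted tiles and 9013 others. Imprinted tiles peak between 0 and 4 points (35.7% of tiles), and none exceeds 16 points, while the other tiles spread further to the right.

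Within most imprinted intermediate tiles, single CpG positions lay close to the level of the tile. At the median imprinted tile, 96.5% of positions in KO and 91.1% in WT had a mean level of 25% to 75%, against 50% in KO and 66.7% in WT at the median intermediate tile elsewhere. The SD of position levels within a tile had a median of 10.2 points in KO and 12.3 in WT for imprinted tiles, and of 23.4 points in KO and 25.3 in WT elsewhere. Every position lay in that band in WT in 25 imprinted tiles (44.6%) and in 18.7% of the others. No position lay in it in WT at the tiles of Inpp5f (chr7:128610001-128611000), Slc22a18 (chr7:143479001-143480000) and Igf2r (chr17:12726001-12727000). Their intermediate level was an average of high and low positions. Imprinted tiles held more positions, 8 at the median against 4 elsewhere. In tiles with 10 or more positions, the within-tile SD was 10.7 in KO and 10.97 in WT for imprinted tiles, against 21.3 in KO and 22.3 in WT elsewhere. The difference between the sets of tiles was not tested.

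Libraries of 1 genotype differed among themselves at the imprinted intermediate tiles by several points. The SD between libraries had a median of 3.38 points in KO and 6.57 points in WT. A pair of KO libraries differed by 4.98 to 6.02 points on average, a pair of WT libraries by 8.57 to 9.75 points, and a KO and a WT library by 6.81 to 8.54 points. At the other intermediate tiles the median SD was 4.35 points in KO and 6.16 points in WT. The difference in spread between the genotypes was not tested.

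Domains grouped here as methylated on the maternal copy made up 14 of the 17 with an intermediate tile. Their 43 intermediate tiles had a median difference of 1.62 points, with KO above WT in 27. The allele is textbook background for the domain, and single tiles, such as secondary regions at promoters, may be methylated on the other copy. The other 3 domains, H19-Igf2, Dlk1-Dio3 and Zdbf2, were grouped as paternally methylated, though not every control region of a domain need follow its group. Their 13 intermediate tiles had a median difference of −0.736 points, with KO above WT in 6. For each domain, the intermediate tile with the most positions is given next.

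**Figure D2:**
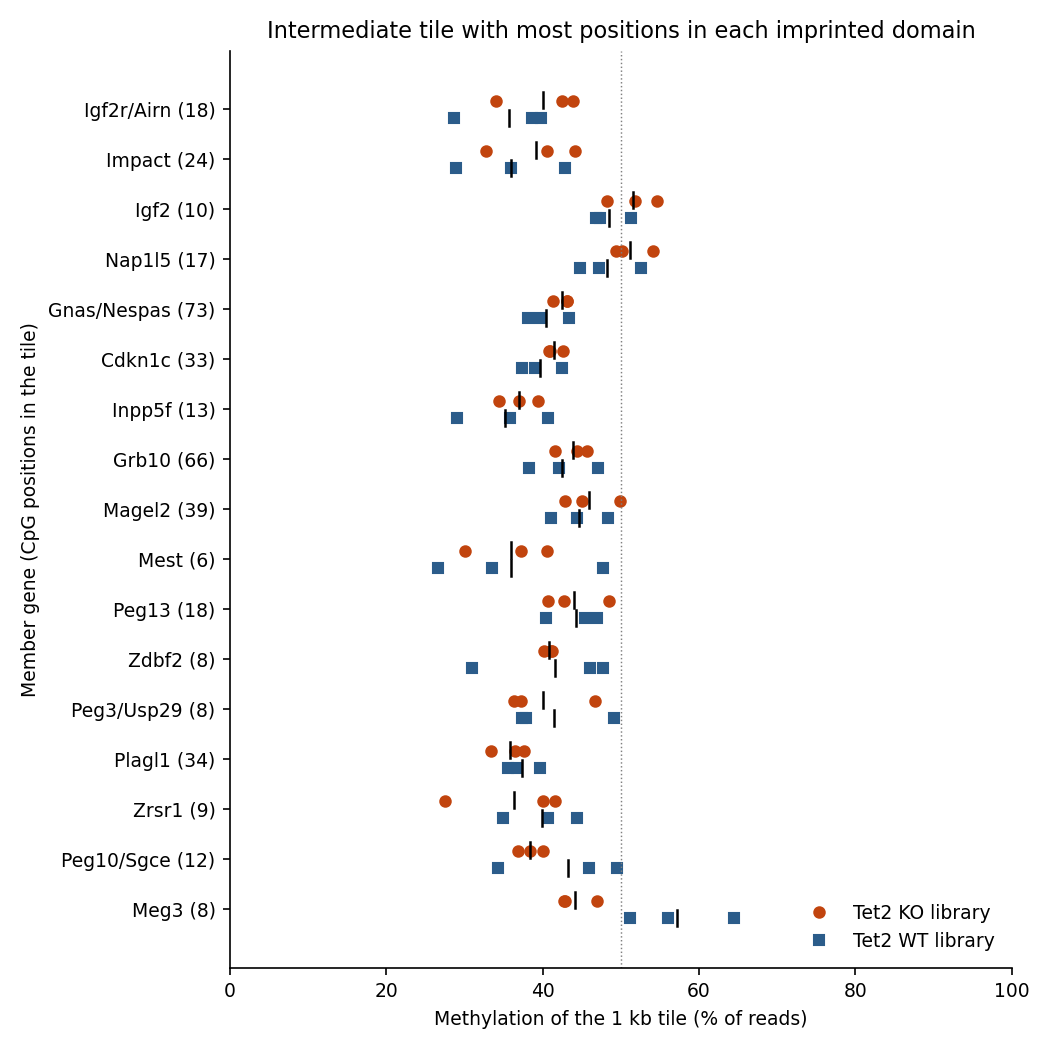
Methylation (horizontal axis, % of reads) of the intermediate tile with most positions in each of 17 imprinted domains, 1 point per library, with the mean of each group as a black line and the number of CpG positions in parentheses. Tiles are ordered by KO minus WT, from 4.41 points at Igf2r/Airn to −13.0 at Meg3, where the groups do not overlap.

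The Gnas locus makes the stimulatory G protein alpha subunit and several imprinted products, among them the antisense RNA Nespas, and held 10 of the intermediate tiles. Its tile with most positions, 73 at chr2:174299001-174300000 within Gnas, stood at 43.1%, 43.1% and 41.3% in KO and 43.4%, 39.7% and 38.2% in WT. The groups overlapped, and the difference was 2.04 points (95% interval −3.47 to 7.55; adjusted p = 0.582). At chr2:174285001-174286000, in Gnas and Nespas, 19 positions gave 35.5%, 39.5% and 39.3% in KO and 43.3%, 46.2% and 48.97% in WT. KO was lower there in every library (−8.07 points, −14.0 to −2.18), with an adjusted p of 0.154, the lowest of the intermediate tiles. Levels at the annotated Gnas starts ranged widely along the locus. At the most upstream annotated start (chr2:174284001-174285000) the mean was 34.7% in KO and 39.7% in WT. At the pair of middle starts (chr2:174327001-174328000) it was 36.9% in KO and 37.5% in WT, and at the most downstream start (chr2:174330001-174331000, 137 positions) 0.143% in KO and 0.111% in WT.

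Grb10 encodes an adaptor that restrains insulin and growth factor receptor signalling. The tile at chr11:12026001-12027000, 971 bases from an annotated start, held 66 positions and stood at 44.4%, 41.5% and 45.7% in KO and 42.1%, 38.3% and 47.1% in WT. WT libraries enclosed the KO values (1.40 points, −5.36 to 8.15; adjusted p = 0.814). The tile at the upstream Grb10 start, chr11:12037001-12038000 with 112 positions, was at 5.37%, 4.30% and 4.43% in KO and 3.46%, 3.66% and 3.86% in WT. It lay under the 5% mean needed for a test, and the groups did not overlap.

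**Figure D3:**
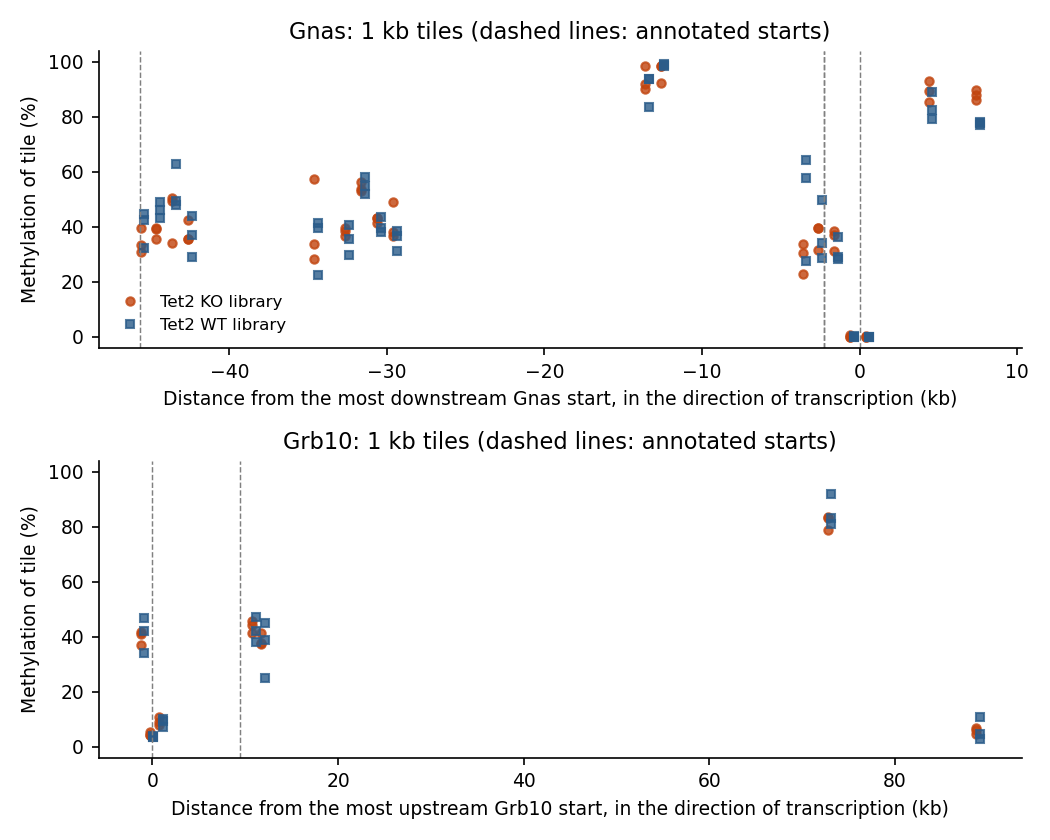
Methylation of each tile (vertical axis, %) across Gnas and Grb10, 1 point per library, by distance in kb from an annotated start in the direction of transcription (horizontal axis), with KO and WT points set slightly apart sideways and dashed lines at the annotated starts in the promoter table. At Gnas the most downstream start is nearly unmethylated in both genotypes and the other annotated starts lie in intermediate tiles, and at Grb10 the upstream start is under 6% methylated.

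Igf2r, the receptor that clears IGF2, is silenced on the paternal copy by the antisense RNA Airn, whose start lies in the maternally methylated control region. The control region tile chr17:12742001-12743000, 690 bases from the Airn start, stood at 43.8%, 42.5% and 33.97% in KO and 28.7%, 39.8% and 38.6% in WT. The overlap was broad (4.41 points, −4.87 to 13.7; adjusted p = 0.774). The tile over the Igf2r start itself (chr17:12769001-12770000, 69 positions) fell just under the intermediate class, with means of 30.002% in KO and 32.6% in WT. Slc22a3, an organic cation transporter of the same domain, had 9 tiles and none of them intermediate, with 16.9% in KO and 14.7% in WT at its start.

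The Kcnq1 domain holds the growth inhibitor Cdkn1c, the placental gene Phlda2, the transporter Slc22a18, the transcription factor Ascl2 and the long RNA Kcnq1ot1, whose promoter is the control region. Of 36 tiles, 6 were intermediate, and KO was above WT in all 6. The 6 include tiles of Slc22a18 (chr7:143479001-143480000) and Kcnq1 (chr7:143412001-143413000), where 0% and 33.3% of positions lay at 25% to 75% in WT. Cdkn1c, an inhibitor of cyclin-dependent kinases, had 33 positions at chr7:143460001-143461000, at 40.9%, 42.6% and 40.7% in KO and 39.0%, 42.4% and 37.3% in WT. The groups overlapped (1.82 points, −3.64 to 7.29; adjusted p = 0.728). The widest of the 6 differences lay in Slc22a18 at chr7:143476001-143477000, with 50.5%, 51.3% and 53.9% in KO and 31.1%, 46.3% and 36.7% in WT. All KO libraries were higher there (13.8 points, 4.74 to 22.9), with an adjusted p of 0.174. The single covered Kcnq1ot1 tile, 547 bases from its start, was just under the class with 30.6%, 41.2% and 34.2% in KO and 32.5%, 31.9% and 33.9% in WT.

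Of the Snrpn domain, whose genes are lost in Prader-Willi and Angelman syndromes in people, 4 of 11 tiles were intermediate. Snrpn, which encodes a splicing protein, stood at 44.5%, 47.4% and 40.7% in KO and 41.1%, 35.95% and 40.8% in WT over its start (chr7:60005001-60006000). The Magel2 tile with 39 positions (chr7:62377001-62378000) was at 45%, 42.8% and 49.8% in KO and 44.4%, 41.0% and 48.4% in WT. The groups overlapped at either gene, with 1.27 points at Magel2 (−5.66 to 8.20; adjusted p = 0.933). Mkrn3, a ring finger gene, had a KO mean above the WT mean at both of its tiles, and neither passed the test. Its intermediate tile chr7:62419001-62420000 (30 positions) stood at 52.0%, 64.3% and 58.9% in KO and 44.2%, 54.5% and 45.2% in WT (10.5 points, 0.950 to 19.99; adjusted p = 0.190, or 0.0292 with a replicate block), with overlap. The tile over its start, chr7:62420001-62421000, stood at 35.2%, 40.2% and 33.3% in KO and 23.9%, 29.6% and 27.1% in WT (9.40 points, 2.87 to 15.9; adjusted p = 0.210), without overlap. Ndn averaged 40.5% ± 16.8 in KO and 40.7% ± 11.2 in WT over its start. Ube3a, a ubiquitin ligase imprinted in neurons, was unmethylated at its start, with 0.0384% and 0.181% in KO and 0.0493% and 0.108% in WT at its 2 tiles.

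Of the single-gene maternal domains, Plagl1, Peg13, Nap1l5, Zrsr1, Inpp5f and Impact contributed 1 to 3 intermediate tiles each. Plagl1, a zinc finger growth suppressor, had 34 positions at its start (chr10:13090001-13091000), with 36.5%, 33.4% and 37.6% in KO and 39.6%, 35.5% and 36.7% in WT. The difference of −1.48 points (−7.05 to 4.08) is over the whole tile and had the opposite sign to that of the 8 upstream CpGs printed above. Peg13, a long RNA within Trappc9, was at 42.7%, 48.4% and 40.7% in KO and 45.4%, 40.4% and 46.9% in WT at chr15:72809001-72810000 (−0.293 points, −7.30 to 6.71). Nap1l5, a retrogene, stood at 54.1%, 50.1% and 49.4% in KO and 52.5%, 47.2% and 44.8% in WT at chr6:58906001-58907000 (3.02 points, −3.58 to 9.62). The groups overlapped at these 3 genes.

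At the promoter of Peg10, a retrotransposon-derived gene, and its divergent neighbour Sgce (chr6:4747001-4748000), levels were 40.1%, 38.3% and 36.8% in KO and 49.5%, 45.9% and 34.2% in WT (−4.80 points, −14.1 to 4.51). Zrsr1, a retrogene for a splicing factor, stood at 39.98%, 27.5% and 41.5% in KO and 34.9%, 44.4% and 40.6% in WT beside its start (chr11:22971001-22972000; −3.63 points, −13.7 to 6.46). The neighbouring tile over the Zrsr1 start, with 64 positions, was at 35.2% in KO and 34.9% in WT, just outside the class. Inpp5f, an inositol phosphatase gene with an imprinted internal transcript, stood at 39.4%, 36.98% and 34.4% in KO and 35.8%, 40.6% and 29.0% in WT at chr7:128688001-128689000 (1.82 points, −6.01 to 9.65). In each of these, the groups overlapped.

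Impact, Peg3, Usp29 and Mest complete the maternal domains. Impact, a regulator of translation, stood at 40.6%, 44.1% and 32.7% in KO and 28.8%, 42.8% and 35.96% in WT (3.25 points, −6.89 to 13.4). Over the shared start region of the zinc finger gene Peg3 and of Usp29 (chr7:6730001-6731000), levels were 36.3%, 46.7% and 37.2% in KO and 37.9%, 37.4% and 49.1% in WT (−1.39 points, −11.3 to 8.49). Mest, a hydrolase gene, had 40.5%, 30.02% and 37.2% in KO and 47.7%, 33.5% and 26.6% in WT at chr6:30739001-30740000 (−0.0195 points, −12.8 to 12.8). The groups overlapped at these tiles, and the interval at Mest leaves room for differences of over 10 points either way.

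In the paternally methylated Dlk1-Dio3 domain, groups separated at the start of Meg3 without passing the test. This long RNA is transcribed from the maternal copy, and at its start (chr12:109540001-109541000, 8 positions) methylation was 42.8%, 42.7% and 47.0% in KO and 64.5%, 51.1% and 56.04% in WT. Every KO library lay below every WT library (−13.0 points, −21.6 to −4.51), and the adjusted p was 0.260. These values are over the whole tile, and at the 4 upstream CpGs printed above, which lie within it, the groups overlapped. The adjoining Meg3 tile (chr12:109541001-109542000, 5 positions) stood at 36.5%, 50.4% and 25.4% in KO and 23.2%, 67.2% and 21.1% in WT, so WT replicate 2 was far above the other WT libraries. Rian, a long RNA of the same cluster, was at 84.5%, 83.5% and 85.95% in KO and 90.6%, 95.6% and 93.2% in WT at chr12:109658001-109659000 (−8.50 points, −14.0 to −3.04; adjusted p = 0.389). The Rian groups did not overlap.

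H19, a long RNA, and Igf2, a fetal growth factor, share a control region upstream of H19. Beyond the H19 span, at chr7:142581001-142582000, levels were 74.8%, 70.9% and 62.4% in KO and 54.0%, 56.95% and 67.2% in WT (9.93 points, −0.468 to 20.3; adjusted p = 0.399). KO replicate 3 lay below WT replicate 3. The tile over the edge of the H19 span that faces Igf2, chr7:142578001-142579000, was at 44.4%, 43.8% and 45.4% in KO and 43.8%, 49% and 51.2% in WT. Within Igf2, the tile chr7:142665001-142666000 stood at 54.7%, 51.8% and 48.2% in KO and 51.3%, 47.4% and 46.8% in WT (3.10 points, −3.08 to 9.28; adjusted p = 0.835). The groups overlapped at these 3 tiles. The tile over the most downstream Igf2 start, chr7:142657001-142658000 with 3 positions, stood at 63%, 56.7% and 62.4% in KO and 57.7%, 42.9% and 48.2% in WT (11.1 points, 1.63 to 20.5; adjusted p = 0.574), also with overlap. The other tiles near the internal Igf2 starts were low, and the densest, with 106 positions, averaged 1.48% in KO and 1.26% in WT. Of the 6 low Igf2 tiles, 2 had groups that did not overlap (chr7:142663001-142664000, means 5.55% in KO and 3.37% in WT, and chr7:142664001-142665000, means 3.11% in KO and 1.59% in WT). Both lay under the 5% mean needed for a test. Groups did not overlap in 19.2% of the 52 imprinted tiles under the intermediate class and in 14.6% of such tiles elsewhere.

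Zdbf2, a zinc finger gene with a paternally methylated region, had 4 intermediate tiles. At chr1:63266001-63267000 it stood at 41.2%, 41.0% and 40.2% in KO and 46.1%, 47.6% and 31.0% in WT (−0.756 points, −11.0 to 9.50; adjusted p = 0.987). At chr1:63261001-63262000 levels were 37.9%, 37.3% and 27.3% in KO and 55.9%, 42.8% and 52.6% in WT. KO was lower there without overlap (−16.2 points, −26.4 to −6.14), with an adjusted p of 0.393 on 145 to 241 reads per library. The Zdbf2 tile with 119 positions over a start was at 5.597% in KO and 5.39% in WT.

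The widest differences at intermediate tiles rested on few positions. Gnas at chr2:174326001-174327000, with 4 positions, stood at 33.8%, 23.0% and 30.4% in KO and 27.5%, 57.8% and 64.5% in WT, and WT replicate 1 lay among the KO libraries (−20.9 points, −41.6 to −0.125; adjusted p = 0.343). Peg13 at chr15:72805001-72806000, also with 4, stood at 47.7%, 58.2% and 68.2% in KO and 45.6%, 36.1% and 46.2% in WT. KO was higher there without overlap (15.4 points, 2.91 to 27.9; adjusted p = 0.230). The remaining one is the Zdbf2 tile at −16.2 points given above, with 5 positions.

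Outside the intermediate class, the largest difference lay inside Igf2r and Airn, at chr17:12751001-12752000. Its 5 positions were at 85.8%, 90.9% and 84.3% in KO and 63.1%, 75% and 78.1% in WT. All KO libraries were higher (14.9 points, 5.17 to 24.7), and the adjusted p of 0.0916 was the lowest of all imprinted tiles. It was 0.0375 with a replicate block and 0.0395 without WT replicate 3, either of which makes a call. Gnas at chr2:174337001-174338000 stood at 88.1%, 89.6% and 86.3% in KO and 77.6%, 77.1% and 77.9% in WT (10.4 points, 5.43 to 15.4; adjusted p = 0.183), again without overlap. Copg2, a coat protein gene beside Mest, was at 76.9%, 84.6% and 69.9% in KO and 60.1%, 76.2% and 67.6% in WT at chr6:30804001-30805000 (9.14 points, −2.59 to 20.9; adjusted p = 0.425). Its groups overlapped.

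**Figure D4:**
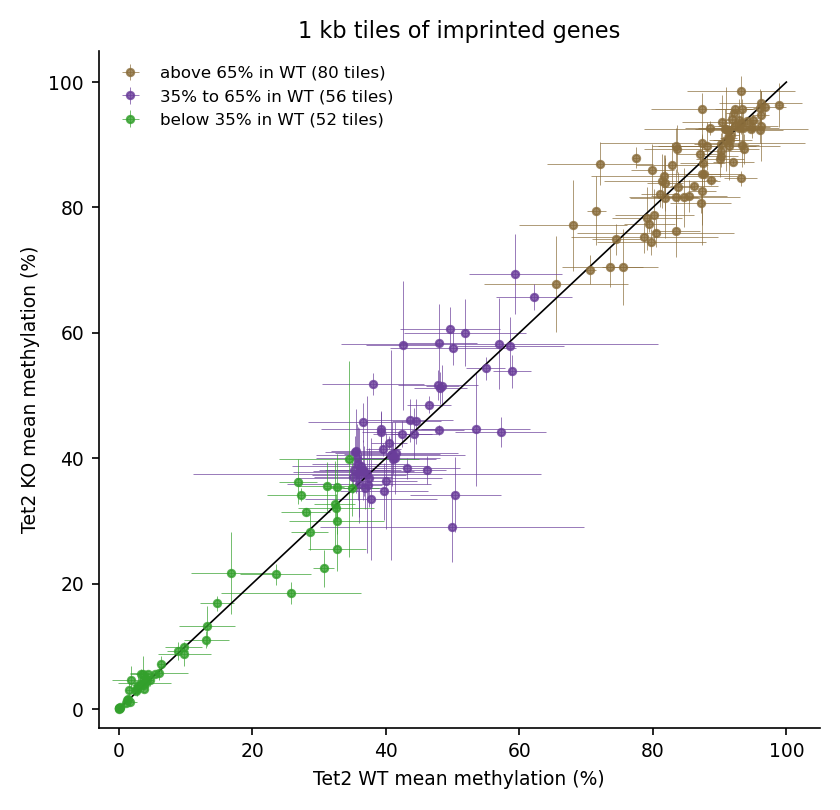
Mean methylation of the 188 imprinted tiles in KO (vertical axis, %) and WT (horizontal axis, %), with bars of 1 SD over 3 libraries and a diagonal line of equality, coloured by the WT class. The points follow the diagonal, and the widest departures, 15.4 and −20.9 points, lie in the intermediate class.

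The 52 imprinted tiles under the intermediate class had a median level of 5.58% in KO and 4.47% in WT, and the 80 above it 89.2% in KO and 88.6% in WT. Their median differences were 0.238 and −0.312 points. Low tiles lay at or near the starts of Ascl2, Phlda2, Klf14, Copg2, Ube3a, Dlk1, Dio3, Grb10, Inpp5f, Igf2 and the most downstream start of Gnas. KO was above WT in 71.2% of the 52 tiles under the class, beside 63.8% of such tiles elsewhere. Of 33 imprinted tiles under 10% in WT, KO was above WT in 26. The median difference over all 33 was 0.217 points, and 6 of the 33 had a mean high enough for the test. High tiles lay within gene bodies such as Kcnq1, Usp29, Slc22a3 and Rtl1. Just under the class in WT stood Zrsr1 at 35.2% in KO and 34.9% in WT and Gnas-Nespas at 39.8% in KO and 34.5% in WT. Just inside it were Inpp5f at 36.95% in KO and 35.1% in WT and Zdbf2 at 65.7% in KO and 62.2% in WT, and just above it Mest at 67.7% in KO and 65.5% in WT.

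Of the 41 genes, 12 had no intermediate tile among those covered. For Kcnq1ot1 and Mest's neighbours Copg2 and Klf14, for Phlda2, Ascl2, Zim1, Ube3a, Slc22a3, Mirg, Rtl1 and Dio3, the covered tiles were either low or high, or just outside the class as given for Kcnq1ot1. Mcts2 is a retrogene within H13 whose maternally methylated start is a known control region, and it alone of the 18 domains had no intermediate tile. Covered CpGs lie 7 to 244 bases before the annotated start, but the limits of the control region were not determined. The tile over that start, chr2:152687001-152688000 with 8 positions, stood at 95.5%, 97.5% and 94.1% in KO and 94.7%, 91.7% and 93.6% in WT. Its groups overlapped (2.31 points, −2.90 to 7.53). Beside it, 18 positions at chr2:152686001-152687000 stood at 95.1%, 95.4% and 94.6% in KO and 92.7%, 90.8% and 93.1% in WT. KO was higher without overlap (2.84 points, −2.05 to 7.73; adjusted p = 0.234), and both groups were near full methylation.

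Genes that establish or maintain imprints were read from a second list of 17, among them the methyltransferases, Uhrf1, the ZFP57 partner Trim28 and the other Tet genes. Of 58 tested tiles, 2 were called higher in KO and 0 lower by the limma-moderated test, beside 0.687% of all tested tiles called. At an unadjusted p under 0.05 there were 11 (18.97%), 10 higher and 1 lower, beside 11.5% of all tested tiles. Dnmt3a, a de novo methyltransferase, stood at 80.3%, 82.9% and 84.9% in KO and 58.4%, 75.7% and 59.6% in WT at chr12:3871001-3872000 (18.1 points; adjusted p = 0.0465). Trim28, the corepressor that ZFP57 recruits, stood at 91.5%, 94.0% and 92.5% in KO and 71.1%, 83.5% and 82.9% in WT at chr7:13035001-13036000 (13.5 points; adjusted p = 0.0318). The groups did not overlap at either tile. Neither tile was called by limma on log2 ratios, with positions weighted equally, with an unmoderated dispersion or with all covered tiles tested, nor was Dnmt3a with at least 5 positions per tile (adjusted p = 0.0533). With 1 library left out, the Dnmt3a call was kept in 1 of 6 cases (without WT replicate 2; adjusted p 0.00415 to 0.170) and the Trim28 call in 2 of 6 (without WT replicate 2 or 3; adjusted p 0.0186 to 0.170).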

How the data were processed

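Reads were aligned with Bismark to GRCm38, per the submitters' processing notes. Its version is not stated there. Per the file headers, the deposited tables give for every CpG, strand by strand, a read count (coverage) and the percent of C and of T calls. The authors' lowest coverage was 10. Multiplying the deposited percent by the count gave whole numbers of methylated and unmethylated reads at 100% of positions, within the rounding of the percent. Reads of another base (0.0172% to 0.0189% per library) were left out. PCR copies were not told apart.

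Positions with 10 or more reads in all 6 libraries (1463044 of 2029165) were summed over 1 kb tiles with at least 3 positions. Strands were counted as separate positions. Imprinted gene spans came from the RefSeq table for GRCm38.p6, 40 genes matched by symbol and Nespas by a synonym. Tile values come from the whole tile, and at least 3 of its positions had to lie within 5 kb of the gene. Tiles with a mean of 5% to 95% were tested with a quasi-binomial logistic model with 4 residual degrees of freedom, whose dispersion was moderated over 83114 tiles by a Python version of limma's squeezeVar (checked against limma 3.58.1 in R 4.3.3). P-values were adjusted by Benjamini-Hochberg over all tested tiles. Group means are unweighted means of 3 libraries. The 95% intervals come from limma-moderated SDs of tile levels, not from the quasi-binomial model, and are not adjusted for the number of tiles. An interval and a p-value can therefore differ at a tile. At the Igf2 tile chr7:142657001-142658000 the interval was 1.63 to 20.5 points and the unadjusted quasi-binomial p was 0.116. The procedure was tested on simulated data.

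The genes and lists were chosen with earlier results of these data known. Values in every library are given for the intermediate tile with most positions in each domain, the 5 other and 3 intermediate tiles with the largest differences, and any called tile. Further tiles, such as those of H19, Snrpn, Slc22a18, Mkrn3 and Mcts2, were added after their values were seen. Alternatives covered coverage, positions per tile, weighting, the flank, the class limits, the test and each library left out. Python 3.11.15, NumPy 2.4.6, pandas 2.3.3, SciPy 1.17.1 and matplotlib 3.10.9 were used.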

Additional observations from a re-analysis of the deposited data

How the results depend on the processing

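With 5 kb flanks, no imprinted tile was called under a coverage minimum of 20, at least 5 positions per tile, equal weighting of positions, removal of positions of very high coverage, an unmoderated dispersion, limma on log2 ratios or a test of all covered tiles, nor with flanks of 2 kb. With 1 library left out, 0 to 1 were called. The 1 call was the Igf2r and Airn tile from 12751001 without WT replicate 3 (17.96 points, adjusted p = 0.0395). Calls over the whole genome numbered 571, and 142, 124 and 155 without KO replicates 1, 2 and 3, and 209, 721 and 1164 without WT replicates 1, 2 and 3. The unmoderated dispersion, the log2 ratios and equal weighting called 0 of all tiles and the test of all covered tiles called 8, so these settings say little about the imprinted genes.

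A replicate block called 2 imprinted tiles, both higher in KO, the Igf2r and Airn tile from 12751001 (14.9 points, adjusted p = 0.0375) and the Mkrn3 tile from 62419001 (adjusted p = 0.0292), and 892 tiles over the genome. KO and WT libraries of the same number had deviations that correlated at 0.0229, 0.00220 and 0.00371, none above 0.1, and not every library correlated best with its own number. Methylated calls on mitochondrial DNA were 0.258%, 0.408% and 0.294% in KO libraries 1, 2 and 3 and 0.260%, 0.410% and 0.241% in WT libraries 1, 2 and 3. Whether the numbers pair the samples is not stated in the labels.

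The median difference of the intermediate tiles was −0.211 points over the 31 tiles with a WT mean of 40% to 60%, against 1.36 over 56. It ranged from 0.0316 to 1.79 with 1 library left out. It was 0.0380 over 50 tiles without WT replicate 1 and 0.0316 over 47 without WT replicate 2, as the class was recut on the remaining WT libraries. The other intermediate tiles of the genome, recut likewise, stood at 3.43 points without WT replicate 1 and 4.39 without WT replicate 2. The cause was not tested. Of 345 values of 25 tiles given in full, 21 had the opposite sign, in 11 tiles with differences of at most 3.63 points. Tiles of few positions and the small number of libraries limit the precision.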

Other observations

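Beyond the 41 genes, 30 further imprinted genes or close neighbours were read, of which 26 had a tile. Of their 163 tiles, 14 were shared with the 41 genes. Among 116 tested tiles, 2 were called higher in KO and 0 lower by the limma-moderated test, beside 0.687% of all tested tiles called. At an unadjusted p under 0.05 there were 13 (11.2%), 10 higher and 3 lower, beside 11.5% of all tested tiles. Th, tyrosine hydroxylase, which lies in the same imprinted cluster as Igf2 and Ascl2, stood at 60.3%, 60.3% and 57.3% in KO and 35.6%, 32.6% and 43.4% in WT at chr7:142895001-142896000 (22.1 points; adjusted p = 0.0198). Trappc9, the host gene of Peg13, stood at 55.4%, 46.97% and 47.1% in KO and 17.2%, 33.9% and 32.7% in WT at chr15:72946001-72947000 (21.9 points; adjusted p = 0.0471). All KO libraries were above all WT libraries at both tiles. Neither tile was called by limma on log2 ratios, with positions weighted equally, with an unmoderated dispersion or with all covered tiles tested, nor was Trappc9 with at least 5 positions per tile (adjusted p = 0.0545). Each call was kept in 2 of 6 cases with 1 library left out, for Th without WT replicate 2 or 3 (adjusted p 0.00839 to 0.105) and for Trappc9 without the same libraries (adjusted p 0.0349 to 0.180).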
